A study of Mus musculus with 7 samples.

Results

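The longest contacts of the Oct4 region were examined in 2 mouse cell types, embryonic stem (ES) cells and the neural progenitor cells (NPCs) made from them. They are the assayed pairs of restriction fragments that, by the distance given with each pair, lay more than 1 Mb apart. This limit selected 5770 of the 22344 pairs of the Oct4 region, out of 86767 pairs in all captured regions. The pairs joined 147 forward and 152 reverse fragments, all 299 fragments of the region, over distances of 1000.08 to 2098.59 kb with a median of 1299.4 kb. The other 16574 pairs of the region served as background. Only 299 further pairs of the table, in the other regions, were over 1 Mb apart.

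The study measured chromosome folding by 5C (chromosome conformation capture carbon copy) with 2 libraries of each cell type. ES cells were of the V6.5 line, which is male and of mixed 129SvJae x C57BL/6 background, grown with LIF and passaged on gelatin to remove feeder cells. NPCs were made from the same line through 4 days as embryoid bodies without LIF, 5 to 7 days in the serum-free selection medium ITSFn, and 2 to 4 days of growth with insulin, transferrin, laminin and 10 ng/ml Fgf2. Chromatin of both types was crosslinked with 1% formaldehyde and digested with HindIII. No expression was measured in the libraries used here, so the labelled cell types could not be checked against markers. Whether replicates were separate cultures is not labelled. The p-values therefore reflect how far these particular libraries spread, and that spread may be technical.

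In 5C, crosslinked chromatin is cut and religated, and a ligation junction is read only where a forward primer on one fragment meets a reverse primer on another. Reads per pair fall steeply with distance along the chromosome, because neighbouring stretches of a polymer collide most often. Contacts far beyond that distance range join separate folded domains and are usually the sparsest part of such a map. Oct4, whose gene is Pou5f1, encodes a transcription factor needed for pluripotency that is switched off when ES cells become neural. In the RefSeq annotation of GRCm38 its neighbours are H2-Q4, H2-Q6, H2-Q7 and H2-Q10, class I genes of the major histocompatibility complex, on one side and Tcf19, Cchcr1, Psors1c2 and Cdsn on the other. The table gives no chromosome coordinates, so positions are in kb from the lowest-numbered fragment, and the place of Pou5f1 among the fragments is unknown here. Fragments keep the primer names of the table, FOR for forward and REV for reverse.

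Library totals ran from 8236666 to 42673906 reads, and the Oct4 region took 6216976 reads in ES replicate 1, 5855806 in ES replicate 2, 8608078 in NPC replicate 1 and 24845647 in NPC replicate 2. Paired values below follow that order of replicates. Pairs over 1 Mb held 56983 and 52574 of these reads in the ES libraries and 208225 and 428099 in NPCs. A single pair, FOR024-REV005 at 88.8 kb, took 26.4% to 49.0% of the region's reads in each of the 4 libraries, and it enters every share of the region's reads. A further pair, FOR406-REV190 at 856 kb, took 12.0% and 25.8% in ES and 3.57% and 4.82% in NPCs. Among pairs over 1 Mb, Pearson's r of log2 scaled counts was 0.778 for ES replicates, 0.688 for NPC replicates and 0.578 to 0.683 across the types. For the nearer pairs it was 0.938 and 0.872 within the types.

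The first question was whether a larger part of the region's reads came from beyond 1 Mb in NPCs. The share was 0.917% and 0.898% in ES replicates 1 and 2 and 2.42% and 1.72% in NPC replicates 1 and 2. Both NPC libraries therefore lay above both ES libraries, with means of 0.907% ± 0.013 in ES and 2.07% ± 0.49 in NPCs (SD, n = 2 each). A two-sided exact permutation test gave p = 0.333, which is the smallest value that 2 against 2 libraries can give. The share was also higher in NPCs over 1.25 Mb, at 0.468% and 0.451% against 1.60% and 1.16%, and over 1.5 Mb, at 0.244% and 0.276% against 0.896% and 0.670%. With the 3 largest pairs of each library left out the groups overlapped, at 1.96% and 3.75% in ES and 3.80% and 3.23% in NPCs (exact permutation p = 0.667). With the limit at 800 kb, which takes in FOR406-REV190, the order turned to 14.5% and 27.5% in ES and 8.79% and 8.43% in NPCs.

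Fewer of the far pairs were seen at all in NPCs. As deposited, 74.0% and 66.4% of the 5770 pairs had at least 1 read in ES and 56.0% and 50.1% in NPCs, although the NPC libraries were deeper. After each library was thinned to the same number of Oct4 reads outside its 3 largest pairs, the shares were 60.8% and 66.4% in ES against 41.4% and 31.8% in NPCs. The groups did not overlap, and NPCs lay 27.0 percentage points lower (exact permutation p = 0.333, the smallest possible). The nearer Oct4 pairs had the same order at equal depth, at 88.6% and 91.6% in ES and 73.6% and 66.2% in NPCs. Lower detection in NPCs was therefore not particular to far pairs. Over the 4 libraries 1771 far pairs had reads in all, 608 in none, 510 in both ES libraries and neither NPC library, and 79 in both NPC libraries and neither ES library. These patterns were not counted among the nearer pairs.

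The order at higher read counts depended on how depth was matched. Thinned to equal Oct4 reads as above, the libraries kept 27456 and 52574 far reads in ES and 53329 and 45443 in NPCs, so ES replicate 1 remained the thinnest beyond 1 Mb. On that scale 3.85% and 5.48% of far pairs reached 20 reads in the ES libraries and 6.71% and 5.91% in NPCs, and 1.02% and 1.75% against 2.72% and 2.37% reached 50 reads. Thinned instead to the same number of far reads, 31.3% and 27.7% reached 5 reads against 19.0% and 17.3% in NPCs. At 20 reads the groups then overlapped, at 8.51% and 5.48% against 6.64% and 6.72%, and at 50 reads they were 2.53% and 1.75% against 2.81% and 2.58%. Whether far reads were gathered on fewer pairs in NPCs depended on the measure. The fullest far pair held 8.11% and 17.2% of far reads in ES and 10.3% and 10.5% in NPCs, so the groups overlapped. ES replicate 2 was also the highest library for the 10 fullest far pairs together. Over larger sets of pairs, far reads were gathered on fewer pairs in NPCs. The fewest pairs that together held at least 50% of the far reads numbered 169 and 49 in ES and 42 and 32 in NPCs, and ES replicate 2 stood closer to the NPC libraries than to ES replicate 1 in this measure. The 100 fullest pairs held 43.1% and 56.8% of far reads in the ES libraries and 62.5% and 65.3% in NPCs. From 500 kb to 1 Mb the order was the other way, with 90.5% and 96.3% in ES and 80.4% and 84.9% in NPCs. There the fullest pair alone held 69.1% and 86.0% in ES and 38.3% and 54.1% in NPCs.

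**Figure D1:**
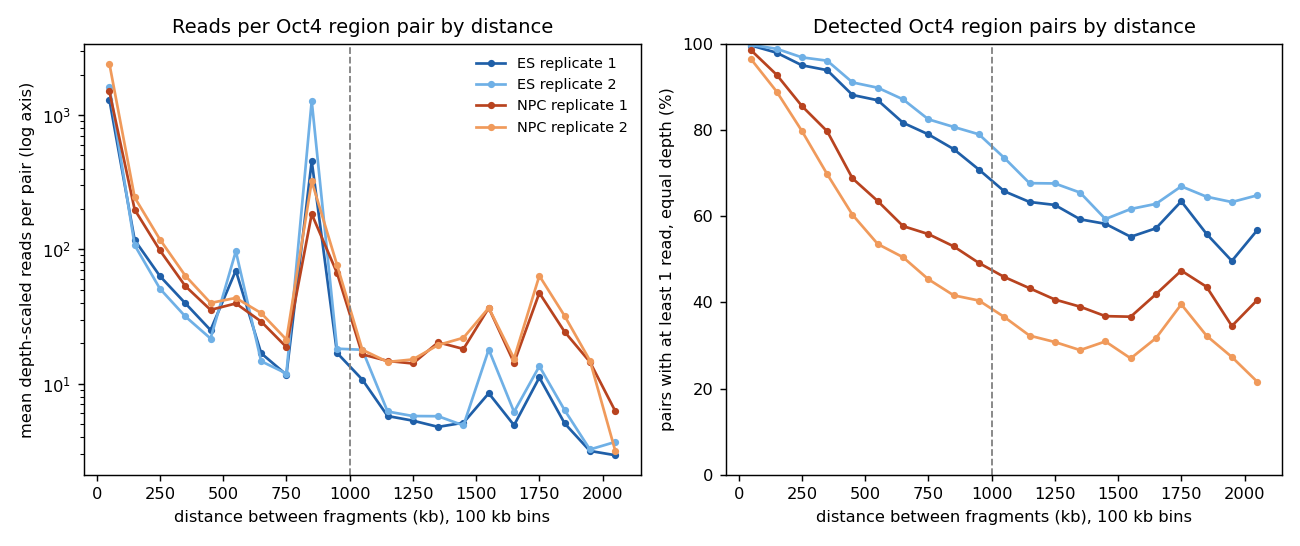
Mean depth-scaled reads per Oct4 region pair (left, log axis) and share of pairs with at least 1 read at equal depth (right) in 100 kb bins of distance, one line per library, with a dashed line at 1 Mb. Beyond 1100 kb the mean is higher in both NPC libraries than in both ES libraries up to 2000 kb, while fewer pairs are detected in NPCs in every bin. The peak at 800 to 900 kb holds FOR406-REV190.

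On log counts the distance profile was flatter beyond 1 Mb, and more so in NPCs. The slope of log10(depth-scaled count + 1) on log10 distance was -0.47 and -0.43 in ES and -0.08 and -0.20 in NPCs, a difference of 0.31 with groups that did not overlap (exact permutation p = 0.333). From 10 kb to 1 Mb the slopes were -1.11 and -1.06 in ES and -1.15 and -1.23 in NPCs, so the nearer decay was slightly steeper in NPCs. Most far pairs held few reads, so their slopes depend on the added 1. With scaled reads first averaged in 50 kb bins, the far slopes were -0.76 and -0.87 in ES and -0.07 and -0.41 in NPCs. The part of the added 1 in the contrast with the nearer slopes was not tested. Depth-scaled counts are reads scaled to the smallest effective library size, that of ES replicate 2. Between 1100 and 1200 kb the mean was 5.73 and 6.20 scaled reads per pair in ES and 14.8 and 14.5 in NPCs. Between 1700 and 1800 kb it was 11.1 and 13.5 in ES and 47.4 and 63.6 in NPCs. The median pair ran against the mean: between 1100 and 1200 kb it held 1.34 and 2 scaled reads in the ES libraries and 0.54 and 0.29 in NPCs.

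Individual contacts were compared with the quasi-likelihood test of edgeR, fitted over the pairs of all regions with a mean of at least 10 reads and adjusted over all of them by Benjamini-Hochberg. Of the 5770 far pairs 1515 were tested. At an adjusted p under 0.05, 163 of these (10.8%) rose in NPCs relative to ES cells and 13 (0.858%) fell. Over all 46967 pairs tested 4.9% rose and 2.33% fell, and among the nearer Oct4 pairs 4.15% and 2.96%. Both NPC libraries lay above both ES libraries in 630 of the tested far pairs (41.6%) and below in 158 (10.4%). The same shares were 31.3% and 30.9% of all pairs tested and 30.2% and 31.5% of the nearer Oct4 pairs tested. The median log2 fold change was 1.32 over tested far pairs, 0.08 over nearer Oct4 pairs and 0.12 over all pairs. These figures do not describe all far pairs, since 705 of the 1515 reached a mean of 10 reads in NPCs only and 46 in ES cells only. Without a count filter 360 of 5162 far pairs rose and 67 fell, or 6.97% and 1.30%. That is at the background, since 7.06% of all pairs and 7.48% of the nearer Oct4 pairs rose in that setting, and the median of far pairs was -0.32 against -0.26 for all.

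The number of calls depended on the scaling and on single libraries. With an offset that removed the distance trend, 67 far pairs rose and 21 fell, so the share of calls higher in NPCs went from 92.6% to 76.1%. The far pairs that rose were then 4.42% of those tested, against 5.13% of all pairs and 4.56% of the nearer Oct4 pairs, so the excess over the background was gone. With the change of each fragment taken out as an offset, edgeR called no pair in any region, and 266 far pairs had an unadjusted p under 0.05. Of the 163 pairs 161 kept a positive log2 fold change there, but they had been chosen for a rise in the same counts, which made this likely. The median of tested far pairs was 0.42 against -0.37 for all pairs. Those tested far pairs include the 705 that reached the count filter in NPCs only. Without ES replicate 1 the counts were 13 and 1, without ES replicate 2 they were 7 and 0, without NPC replicate 1 they were 672 and 167, and without NPC replicate 2 they were 308 and 35. As shares higher in NPCs these were 0.81%, 0.43%, 46.9% and 24.8% of tested far pairs, against 0.498%, 0.0967%, 25.3% and 7.39% of all pairs. In each of these the lone library was assumed to vary like the other type. In the main fit the share of tested far pairs called higher in NPCs was 7.99% from 1000 to 1250 kb and 12.9% from 1250 to 1500 kb. It was 13.3% from 1500 to 1750 kb and 13.7% beyond. Pairs called higher in ES numbered 8, 0, 5 and 0 in these bands. The bands were not compared without the count filter or with the distance offset.

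**Figure D2:**
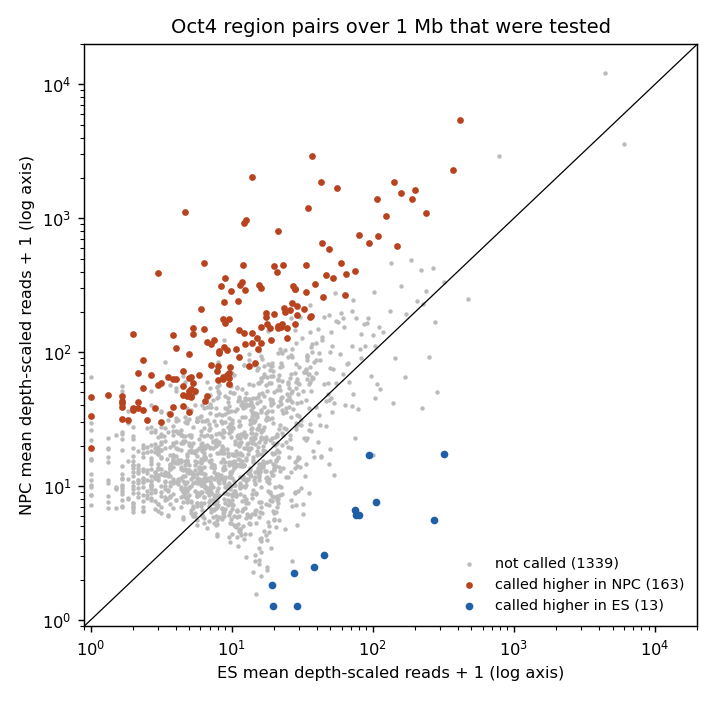
Mean depth-scaled reads + 1 in ES (x, log axis) and NPCs (y, log axis) of the 1515 tested pairs over 1 Mb, with the line of equality. The 163 pairs called higher in NPCs (orange) and the 13 called higher in ES cells (blue) lie off the line on either side, and the fullest pair of all, FOR060-REV437, is among the grey pairs that were not called.

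The pairs called higher in NPCs with the most reads had one end between 90.5 and 488 kb and the other between 1240 and 1959 kb. FOR447-REV025 joined 1861 kb with 106 kb and had 780 and 301 reads in the ES libraries and 9041 and 20936 in NPCs. Scaled for depth this was 522 and 301 against 4889 and 5968, so all NPC values lay far above the ES values, with a log2 fold change of 3.72 ± 0.66 (SE, edgeR adjusted p = 0.0285). FOR470-REV025, at 1959 kb and 106 kb, rose more, from 57 and 34 reads to 4081 and 12704 (log2 fold change 6.33 ± 0.70, edgeR adjusted p = 0.0225). FOR349-REV025, at 1459 kb and 106 kb, was almost empty in ES, with 18 and 14 reads, and held 4270 and 6223 in NPCs (log2 fold change 7.29 ± 0.69, edgeR adjusted p = 0.0225). These 3 contacts share fragment REV025 and are therefore not independent of each other.

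Others did not involve REV025. FOR021-REV290 joined 90.5 kb with 1240 kb and had 60 and 44 reads in the ES libraries against 3484 and 6412 in NPCs, a log2 fold change of 5.46 ± 0.61. FOR366-REV035, at 1535 kb and 140 kb, had 211 and 138 against 3066 and 7223 reads (3.73 ± 0.57). FOR447-REV104, at 1861 kb and 488 kb, had 517 and 391 against 3699 and 9120 reads (2.64 ± 0.56). In each of these 3 pairs both NPC libraries exceeded both ES libraries after scaling. Of 17 other settings, FOR349-REV025, FOR470-REV025 and FOR021-REV290 kept their call in 16 and lost it with the offset per fragment, where no pair was called and their log2 fold changes were 4.13, 3.50 and 4.28. FOR447-REV104 lost its call in 6, and that offset took FOR447-REV025 to a log2 fold change of 0.17.

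The largest fold changes toward NPCs came from pairs with few or no ES reads. FOR060-REV449, which spanned 1585 kb, went from 0 and 0 reads to 101 and 124. FOR006-REV449, 1845 kb apart, went from 0 and 0 to 59 and 115 reads, which is at least 12.9-fold with the ES libraries set at 3 counts each. Both use REV449 at 1863 kb. FOR354-REV014, 1426 kb apart, went from 0 and 0 to 39 and 54 reads, or at least 7.29-fold higher. FOR470-REV010 joined fragments near the outer ends, at 1959 kb and 32.0 kb. It had 2 and 6 reads in the ES libraries and 1759 and 4523 in NPCs (log2 fold change 8.34 ± 0.85, edgeR adjusted p = 0.0225). These 4 pairs were chosen for their size of change among the calls.

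The 13 pairs higher in ES cells held far fewer reads. The fullest was FOR441-REV028, at 1829 kb and 125 kb, with 486 and 308 reads in the ES libraries and 25 and 67 in NPCs, or 325 and 308 against 13.5 and 19.1 after scaling (log2 fold change -4.26 ± 0.54, edgeR adjusted p = 0.0225). Its groups stood clearly apart. FOR360-REV001, from 1510 kb to the lowest-numbered fragment, had 638 and 118 reads in the ES libraries against 17 and 0 (-6.05 ± 1.41, edgeR adjusted p = 0.0446), with a wide gap between the ES libraries. FOR002-REV388, at 5.78 kb and 1630 kb, had 81 and 154 against 20 and 8 reads (-4.04 ± 0.92).

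Fragment FOR453 at 1878 kb took part in 4 of the 13 pairs. Its pairs with REV194, REV159 and REV171 spanned 1004, 1136 and 1100 kb and ended between 743 and 875 kb. With REV159 it had 106 and 87 reads in the ES libraries and 10 and 17 in NPCs, a log2 fold change of -3.93 ± 0.64. With REV052, 1637 kb away, it had 50 and 23 against 1 and 0 reads. Pooled over the libraries of a type and divided by their summed effective library sizes, the ratio was 156.7 (exact 95% interval 27.3 to 6274, counting error only). FOR047-REV409, 1531 kb apart, had 33 and 15 against 1 and 0 reads, a ratio of 103.1 on the same pooled scale (17.6 to 4154.1). FOR351-REV096, 1030 kb apart, had 79 and 22 against 5 and 1 reads.

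**Figure D3:**
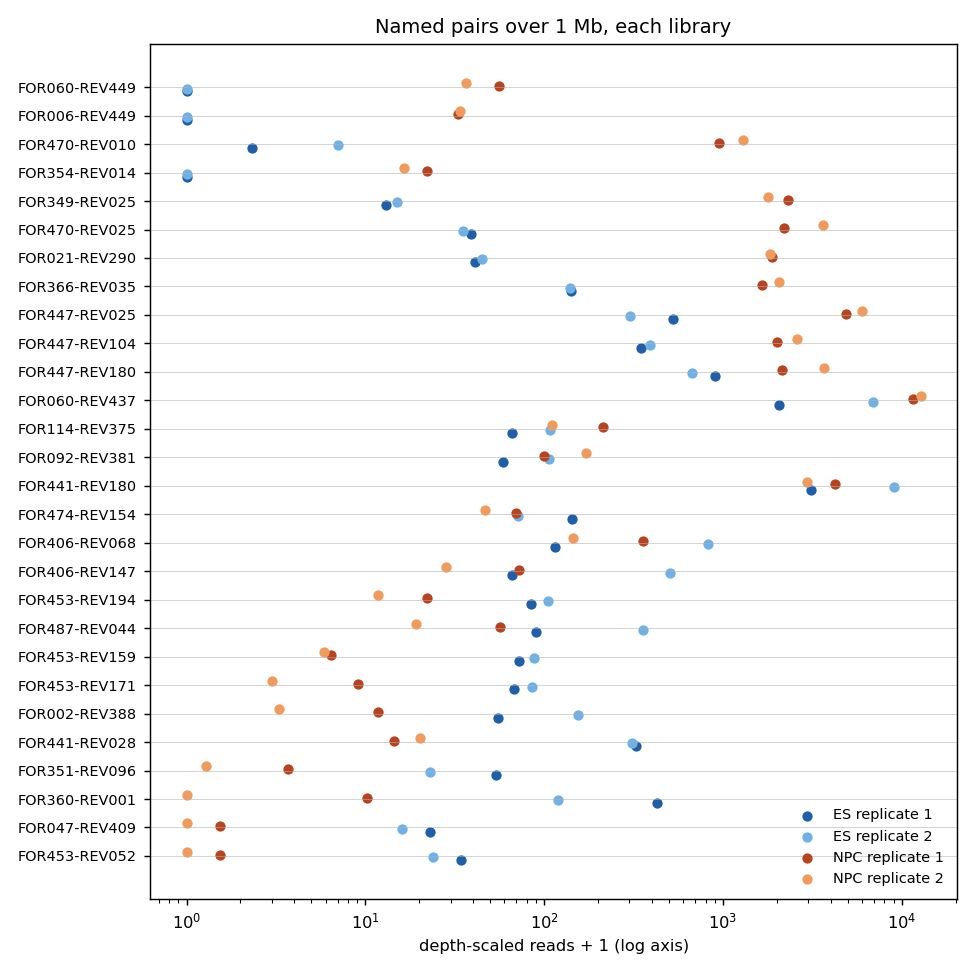
Depth-scaled reads + 1 (log axis) of each named pair over 1 Mb, one point per library, ordered by log2 fold change. Pairs at the top are higher in both NPC libraries, pairs at the bottom in both ES libraries, and in the middle are pairs whose libraries overlap or were not called, such as FOR441-REV180.

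Of the 8 fullest far pairs 5 were called, all described above, and the other 3 were not. FOR060-REV437 joined 279 kb with 1820 kb, over 1542 kb, and had 3057 and 6868 reads in the ES libraries and 21427 and 44783 in NPCs. After scaling these were 2044 and 6868 against 11587 and 12766, with a wide gap between the ES libraries. The log2 fold change of 1.45 ± 0.76 did not pass (edgeR adjusted p = 0.243). FOR441-REV180 joined 1829 kb with 813 kb and had 4621 and 9036 reads in the ES libraries and 7797 and 10404 in NPCs. Its scaled values, 3090 and 9036 against 4216 and 2966, overlapped (log2 fold change -0.76 ± 0.71, edgeR adjusted p = 0.505). FOR447-REV180 had 1342 and 669 reads against 3930 and 12962 (1.89 ± 0.59, edgeR adjusted p = 0.0836).

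FOR060-REV437 and FOR441-REV180 also stood out against expectation. Observed over expected was log2(count + 1) minus a curve of distance and the median effect of each primer. FOR447-REV180 was above expectation by less, at 1.62 and 1.66 in ES and 1.36 and 2.12 in NPCs. FOR441-REV180 was 5.60 and 7.69 above expectation in ES and 6.11 and 5.48 in NPCs on this log2 scale. FOR060-REV437 was 5.03 and 6.99 above it in ES and 6.36 and 6.09 in NPCs. Some thinner pairs reached the same height in all libraries. FOR474-REV154, at 1968 kb and 714 kb, had 212 and 70 reads in the ES libraries and 127 and 161 in NPCs, with 6.35 and 5.61 against 5.28 and 5.45. FOR092-REV381, at 419 kb and 1600 kb, reached 4.71 and 5.29 against 6.84 and 5.92, and FOR114-REV375, at 515 kb and 1571 kb, 4.21 and 5.13 against 5.26 and 4.36. Fragment FOR406 at 1712 kb gave 2 of the 8 highest, with REV147 at 674 kb (97 and 503 against 132 and 95 reads) and REV068 at 340 kb (171 and 822 against 659 and 504). In both, ES replicate 2 was the highest library on the depth-scaled count and in observed over expected. FOR487-REV044, 1846 kb apart, likewise had 134 and 357 reads in the ES libraries and 103 and 64 in NPCs.

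Counted over the 5770 far pairs, 186 (3.22%) were at 1 or more above expectation in all 4 libraries and not called by edgeR. The share was 3.05% among the nearer Oct4 pairs. Only 1515 far pairs were tested, so those not called include pairs too thin to test, and the class sets no minimum of reads. It does not show that these pairs were equal in the 2 types. A further 133 far pairs (2.31%, nearer pairs 1.56%) reached 1 in both NPC libraries and were called higher there, and 6 did so for ES cells. Residuals were spread more widely in NPCs, with a robust SD of 1.16 and 1.30 against 0.798 and 0.800 in ES, and the part of this in the class counts was not tested. FOR406 and REV062 each took part in 17 of the 186 pairs. REV014 took part in 15, although only 1 of its far pairs was tested. All far pairs of REV014 together held 40 and 17 reads in the ES libraries and 52 and 101 in NPCs. In the authors' deposited table, 133 far pairs had p under 0.05 in both ES libraries, 144 in both NPC libraries and 40 in all 4. These were 2.31%, 2.50% and 0.693% of far pairs, close to the 2.40%, 2.29% and 0.821% of nearer Oct4 pairs. With a deposited p under 0.01 the far shares were higher, at 1.06%, 1.07% and 0.399% against 0.742%, 0.718% and 0.278%. The differences were not tested.

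Far reads were gathered on few fragments. The 6 fragments with the most far reads were FOR447 (1861 kb), REV437 (1820 kb), FOR060 (279 kb), REV025 (106 kb), REV180 (813 kb) and FOR441 (1829 kb). Their 332 pairs are 5.75% of the far pairs and held 43.7% and 52.3% of far reads in the ES libraries and 52.9% and 54.2% in NPCs. The same fragments held 7.89% and 4.32% of the nearer reads in the ES libraries and 24.4% and 18.7% in NPCs. They were chosen for their far reads, so a lower near share was built into the choice. Nearer reads were gathered on few fragments too: REV005 alone was in 40.4% and 49.6% of them in ES and 27.4% and 37.5% in NPCs. FOR447 was in 17.6% and 12.2% of far reads in the ES libraries and in 20.2% and 23.3% in NPCs. REV025 went from 5.28% and 2.56% to 14.4% and 14.6%, and FOR441 from 11.2% and 20.1% to 4.72% and 3.21%, both without overlap. These shares lean on single pairs: FOR060-REV437 made up 75.2% to 89.9% of the far reads of FOR060, and FOR441-REV180 72.7% to 85.5% of those of FOR441.

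**Figure D4:**
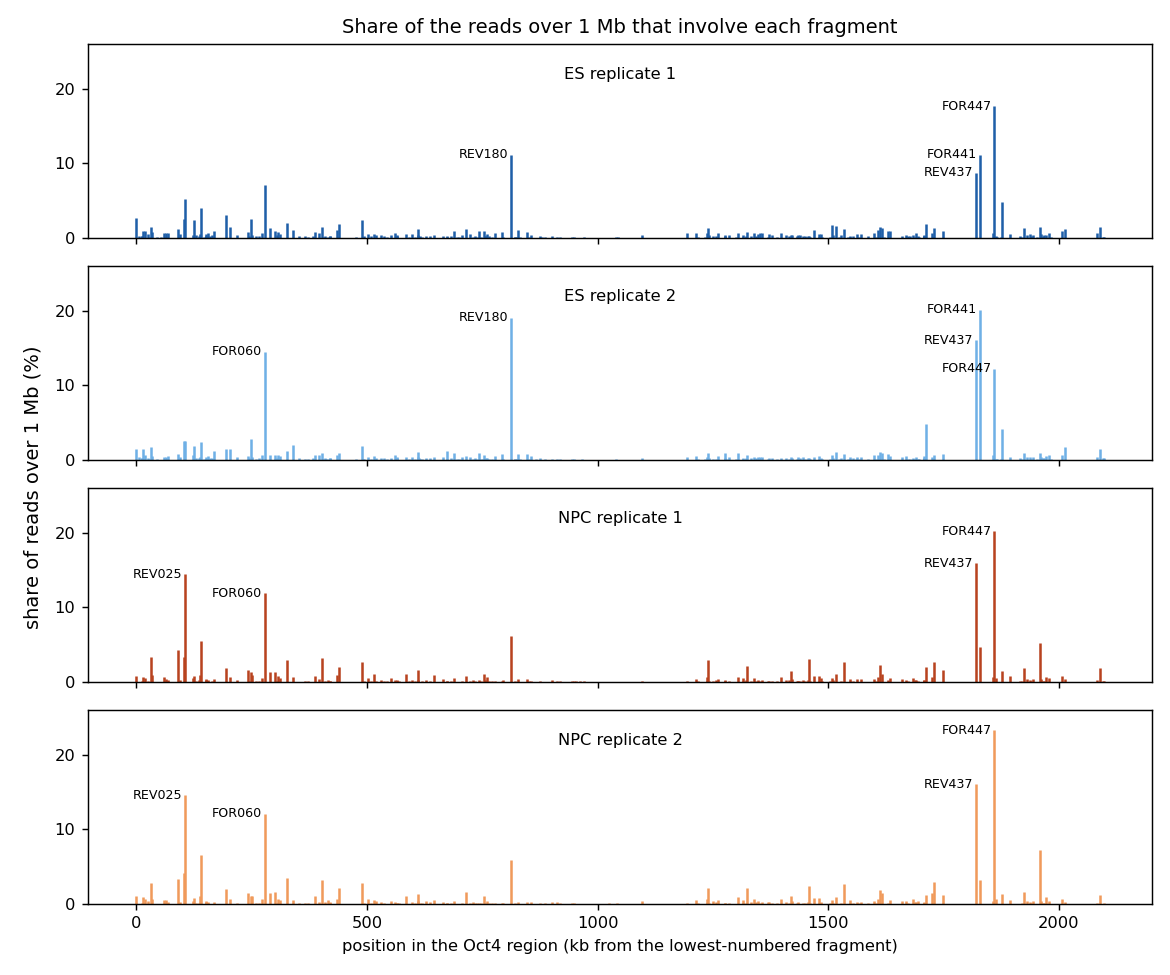
Share of a library's reads over 1 Mb that involve each of the 299 fragments, by position in the region, one panel per library. The same stretch around 1820 to 1861 kb stands out in every library, REV025 at 106 kb is tall in both NPC libraries, and REV180 at 813 kb and FOR441 at 1829 kb are taller in ES.

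Summed far reads per fragment were tested with edgeR over the near and far sums of all fragments of all regions. Of 292 Oct4 fragments tested, 108 had more far reads in NPCs (37.0%) and 24 had more in ES cells (8.22%). Over all sums tested 28.5% rose and 17.2% fell, and for the nearer reads of the same fragments 28.1% and 14.4%. With library totals as the only scaling, which moved the median log2 fold change of all sums from 0.29 to -0.13, 49 and 25 were called. The share of calls higher in NPCs then went from 81.8% to 66.2%. Without ES replicate 1 the counts were 39 and 6, without ES replicate 2 they were 41 and 1, and without NPC replicate 1 the count higher in ES was 48. Without ES replicate 1 the far sums higher in NPCs were 13.4% of those tested, below the 20.2% of all sums and 27.1% of near sums, so the excess over the background turned. With the largest pair of each sum left out it was 25.9% against 27.3% of all sums.

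The largest rise was that of FOR349 at 1459 kb, with 150 and 104 far reads in the ES libraries and 6435 and 10198 in NPCs (log2 fold change 4.98 ± 0.46, edgeR adjusted p = 2.8e-19). Its pair with REV025 gave 66.4% and 61.0% of its NPC far reads, and without that pair its change was 3.70. FOR470 had 837 and 491 against 10828 and 31120 reads (3.82 ± 0.45), FOR289 at 1238 kb 21 and 5 against 112 and 719 (3.76 ± 0.67), and FOR021 662 and 396 against 8962 and 13998 (3.41 ± 0.42). REV025 had 3007 and 1344 against 29965 and 62355 (3.35 ± 0.51), and 15 of its 49 tested far pairs were called, all higher in NPCs. These 5 kept their call in each of 12 other settings. REV437 (1.69 ± 0.50), FOR060 (1.45 ± 0.48) and FOR447 (1.98 ± 0.52) also rose. FOR447 kept its call in the same settings, while FOR060 lost it in 4 and REV437 in 2, library totals and the removal of ES replicate 1 among both.

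Falls were smaller in reads. REV165 at 758 kb had 131 and 104 far reads in the ES libraries and 16 and 39 in NPCs (log2 fold change -3.24 ± 0.69, edgeR adjusted p = 3.8e-05). REV364 at 1523 kb had 49 and 48 against 13 and 13 reads (-2.92 ± 0.84), and FOR036 at 146 kb 47 and 46 against 7 and 25 (-2.75 ± 0.83). FOR002 and FOR004, at 5.78 and 12.5 kb, fell by 2.80 and 2.46 on the log2 scale. REV165 kept its call in each of 12 settings, and REV364, FOR036, FOR002 and FOR004 each lost it without ES replicate 2. REV180 did not pass, with 6342 and 10017 against 12726 and 25203 reads and a log2 fold change of -0.01. Without its largest pair, FOR441-REV180, REV180 was higher in NPCs by 1.71 (edgeR adjusted p = 0.00079). FOR441 did not pass either (-0.67 ± 0.44, edgeR adjusted p = 0.205).

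Fragments that gained far reads mostly gained near reads as well. Over the 292 fragments the far and near log2 fold changes had a Pearson's r of 0.779, given as a description, since fragments share libraries and scaling. Of the 108 fragments with more far reads in NPCs, 66 also had more near reads there, which is 61.1% of the far and 80.5% of the near calls. Among the falls 17 were shared, and no fragment was called in opposite directions. REV025 rose by 3.75 ± 0.87 near and 3.35 ± 0.51 far. Its near reads include FOR024-REV025, 2.45 kb apart, which went from 34096 and 10980 to 547682 and 1324170 reads.

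The ratio of far to near reads per fragment was compared with limma, in a test chosen after the data had been seen. The ratio was higher in NPCs for 6 of 292 fragments (2.05%) and lower for 1 (0.342%). FOR349 (2.45 on the log2 scale, limma adjusted p = 0.0036), REV290 at 1240 kb (2.38), REV127 at 585 kb (2.33), REV508 at 2090 kb (2.09), REV283 at 1208 kb (1.96) and REV409 at 1725 kb (1.90) were the 6. REV165 was the other, at -3.04, with near reads that differed little (log2 fold change -0.06 ± 0.41). None of the 7 was called by limma without either NPC library, with the replicate block or with the largest pair of each fragment left out, and 14 to 28 fragments then had an unadjusted p under 0.05.

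**Figure D5:**
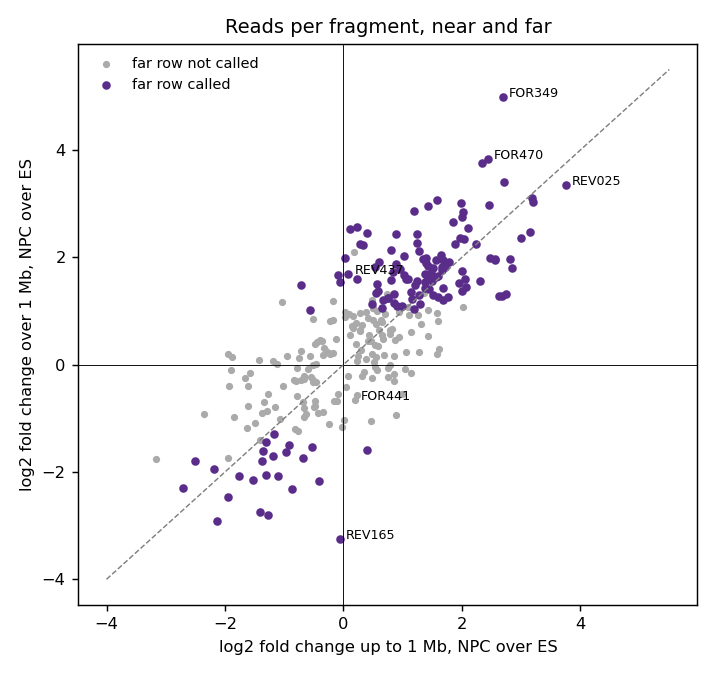
Log2 fold change, NPC over ES, of the summed reads of each fragment up to 1 Mb (x) and over 1 Mb (y), for 292 fragments of the Oct4 region, with purple points for far sums called by edgeR and a dashed line of equal change. Most points follow the line (r = 0.779), while FOR349 lies above it and REV165 below, with a near change close to 0.

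Averaging observed over expected in windows of 60 by 60 kb asked whether whole stretches, rather than single fragments, moved together. Of 153 windows made only of far pairs, limma called 1 that rose in NPCs and 2 that fell, with 2.58% and 3.66% of the windows of all regions and 1.82% and 2.5% of the nearer Oct4 windows called in those directions. The window joining 360-420 kb with 1500-1560 kb (72 pairs) rose from -0.07 and -0.16 in ES to 0.36 and 0.46 in NPCs (adjusted p = 0.046). The window joining 180-240 kb with 1380-1440 kb (15 pairs) was -0.07 and -0.53 in ES and -1.58 and -2.04 in NPCs (adjusted p = 0.0453). The window joining 60-120 kb with 1320-1380 kb (46 pairs) was 0.06 and 0.14 in ES and -0.48 and -0.77 in NPCs (adjusted p = 0.0483). Its summed reads went the other way, from 713 and 399 to 4083 and 9747. A residual is relative to what the same fragments have elsewhere, and each pair counts equally in the mean. All 3 calls lay just under the threshold, and limma gave 0 and 0 without either ES library (9 and 7 windows at an unadjusted p under 0.05, against 39 with all libraries).

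Some windows stood above expectation in every library. The highest lowest value was that of 120-180 kb with 1980-2040 kb, whose 21 pairs averaged 0.74 and 0.60 in ES and 0.54 and 0.58 in NPCs. The window of 360-420 kb with 1920-1980 kb followed, at 0.28 and 0.33 against 0.39 and 0.43 over 78 pairs, and that of 0-60 kb with 2040-2100 kb, the outer corner of the map, at 0.26 and 0.42 against 0.44 and 0.47 over 26 pairs. Differences between the types in these windows did not pass (limma adjusted p of 0.613, 0.446 and 0.581). In all, 25 of the 153 windows were above 0 in all 4 libraries and 48 were below.

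Pairs at the 1 Mb limit held few reads. Just inside it, FOR210-REV469, FOR092-REV334 and FOR013-REV237 had 0 to 6 reads per library. Just over it, FOR153-REV403 had 4, 3, 0 and 0 reads in ES replicates 1 and 2 and NPC replicates 1 and 2, FOR213-REV471 had 2, 5, 3 and 0, and FOR182-REV437 had 23, 12, 6 and 1.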

How the data were processed

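The authors deposited, per primer pair and library, raw read counts, a predicted signal, a ratio of counts to that signal with 0 reads entered as 0.25, a p-value and a score, per the file headers. Per the submitters' processing notes, Bowtie was among the tools. The sources used here do not state the model of the signal and p-value. Not used were 4 per-sample columns. The counts are not normalized. Reads include PCR copies, so intervals and lower bounds hold for counting error alone.

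The pairs over 1 Mb and the lists were chosen with earlier results of these data known. Positions were rebuilt from the distances (largest misfit 0.548 bp). Pairs and fragment sums were tested with edgeR 4.0.16 in R 4.3.3 (TMM factors, mean of at least 10 reads, Benjamini-Hochberg over the whole table), windows and ratios with limma 3.58.1. All fold changes set NPC over ES. For residuals, a lowess fit on log10 distance (span 0.3) and median primer effects were subtracted from log2(count + 1) in 5 rounds, then averaged over windows with at least 4 pairs.

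Named pairs were the 6 per direction with most depth-scaled reads and the 4 per direction with the largest change among non-overlapping calls, the 8 fullest pairs and the 8 with the highest lowest residual. Named fragments were the 6 with most far reads and the 5 largest changes per direction, and named windows the 5 largest per direction and the 5 highest in all libraries. Fragments called in the ratio test were named after their values were seen. Tested on data simulated at the common dispersion, the pair test recovered 15% of 16-fold and 0% of 4-fold changes over 46967 pairs. At a lower dispersion it recovered 100% and 48%. The fragment test recovered 97% of 4-fold changes over 1812 sums at its common dispersion. Every simulated row had the same dispersion (0.338 for pairs), while the fits let it differ between rows, so these rates may not hold for the data. The smallest rise called among far pairs was 2.07 on the log2 scale. Alternatives were DESeq2 1.42.0, limma, other scalings, filters, windows and thresholds, equal depth, a replicate block and the removal of each library. ChIP-seq peaks of the series were not used here, since the pairs have no coordinates.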

Additional observations from a re-analysis of the deposited data

How the results depend on the processing

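The direction of the decay slope held in all 9 alternatives, and the far read share kept its direction in 11 of 12. Both counts include the removal of each library, which could not turn the direction, since the groups did not overlap. Without the 3 largest pairs, over all distances or over 10 kb, the share kept its direction although the groups overlapped. With the limit at 800 kb the share became -12.4 percentage points, NPC minus ES, since FOR406-REV190 lies between the limits. The detected share turned to 1.65 points at 20 reads and 1.16 at 50 reads, alternatives chosen after seeing the data. With the number of far reads made equal instead, it was -0.31 at 20 reads and 0.55 at 50 reads. The cause of the other changes was not tested unless named. Many far pairs held few or no reads: 608 had none in any library, and the median far pair of a library had 1 or 2. The part of depth in this was not tested. The NPC libraries were deeper, yet fewer far pairs had reads in them than in the ES libraries.

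Calls of far pairs, 163 higher in NPCs and 13 in ES, became 91 and 13 with library totals, which moved the median log2 fold change over the whole table from 0.12 to -0.28. They became 67 and 21 with the distance-dependent offset, 0 and 0 with the offset per fragment and 360 and 67 with no count filter. They were 137 and 5 at a mean of 5 reads, 263 and 20 with DESeq2, 201 and 20 at equal depth and 118 and 6 with Oct4 pairs alone in the fit. As shares higher in NPCs, library totals gave 6.01% of tested far pairs against 2.33% of all pairs, and a mean of 5 reads 6.35% against 3.12%. DESeq2 gave 17.4% against 10.8%, equal depth 30.6% of 657 against 11.6%, and Oct4 pairs alone 7.79% against 4.04%. In each of these the share higher in ES was lower among far pairs than among all pairs. Leaving out each library in turn gave 7 to 672 and 0 to 167. Libraries of the same replicate number did not deviate together. The correlation of same-numbered deviations was -0.139 over all tested pairs and -0.057 over tested far pairs. Whether same-numbered libraries were prepared together is not labelled. With the replicate block edgeR called 196 and 15 far pairs, 92 and 10 far fragment sums, and limma 0 and 0 windows (35 at an unadjusted p under 0.05) and 0 and 0 far to near ratios (20). With the numbers crossed, chosen after seeing the data, 203 and 15 far pairs were called. The shares higher in NPCs were 12.9% of tested far pairs with the replicate block and 13.4% with the numbers crossed. Over all pairs tested they were 6.21% and 7.61%. The shares higher in ES were 0.990% of tested far pairs in both, against 3.54% and 3.42% of all pairs.

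Fragment sums, 108 and 24, became 49 and 25 with library totals. These were 16.8% and 8.56% of far sums, against 12.3% and 17.4% of all sums. Over removals of 1 library they ranged from 39 to 133 and from 1 to 48. The far to near ratio, 6 and 1, became 0 and 0 with the largest pair of each fragment left out, and ranged from 0 to 26 and 0 to 5 over removals. Window calls, 1 and 2, became 28 and 0 with the distance curve alone (42 at an unadjusted limma p under 0.05), 2 and 4 with residuals at equal spread and 2 and 5 with a pseudocount of 5. They were 0 and 0 with the authors' ratio (67), 1 and 1 with 100 kb windows, 0 and 0 with 40 kb windows (72), and 90 and 1 with edgeR on summed counts. The 28 were 18.3% of far windows, near the 16.9% of all windows called higher in NPCs in that setting, where 9.84% of all windows fell. With equal spread, a pseudocount of 5 and 100 kb windows, far shares lay below those of all windows in both directions. With summed counts 58.8% of far windows rose against 34.0% of all, and 0.654% fell against 9.20%. Removals gave 0 to 22 and 0 to 49. The classes, 186 in all libraries, 6 for ES and 133 for NPCs, became 426, 10 and 150 at a residual of 0.5, 77, 3 and 116 at 1.5, 588, 13 and 163 with the distance curve alone, and 105, 4 and 120 with a pseudocount of 5. Removals gave 191 to 297, 0 to 26 and 7 to 575, under a looser rule, since 1 library of a type then stood alone.

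Of the named pairs and fragments, those that turned had not been called. With the offset per fragment FOR060-REV437 went to -0.74, FOR114-REV375 to -0.47 and FOR447-REV180 to -0.55 (log2), and with the distance-dependent offset FOR092-REV381 went to -0.15. Without 1 library FOR406-REV068 ranged from -1.78 to 1.09, FOR441-REV180 from -1.40 to 0.18 and the far sum of FOR441 from -1.18 to 0.13. The far sum of REV180 went to 0.12 with limma, 1.71 without its largest pair, 0.12 with the replicate block and -0.50 to 0.74 without 1 library. That of REV283 went to 0.030, 0.38 and 0.0040 in the same order and to -0.74 to 0.90 without 1 library.

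Of the named windows, that of 0-60 with 1740-1800 kb went to -0.26 with the authors' ratio, and that of 0-60 with 2040-2100 kb to -0.92, or to -0.057 at equal spread. That of 780-840 with 1980-2040 kb went to -0.16 with the distance curve alone, -0.88 with the authors' ratio and -0.29 with summed counts. That of 60-120 with 1320-1380 kb went to 0.20 with the distance curve alone and 2.52 with summed counts, that of 120-180 with 1980-2040 kb to 0.045 with the distance curve alone, and that of 180-240 with 1380-1440 kb to 0.30 with summed counts. That of 360-420 with 1500-1560 kb went to -0.84 with the authors' ratio, and that of 360-420 with 1920-1980 kb to -1.40, or to -0.051 at equal spread.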
